A study of Mus musculus with 13 samples.

Results

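Transcripts of 10 digestive enzyme genes of the exocrine pancreas (Cela1, Cela2a, Cela3b, Try4, Ctrb1, Cpa1, Pnlip, Pnliprp1, Cel and Clps) were followed across samples of mouse proximal small intestine. The genes were taken by symbol from the unnormalized table of the series, where the elastases stand under their older Ela names, and were chosen by their signals on these same arrays, which were known to range widely. They had 11 probes, a pair of them for Clps, out of 25697 probes and 17898 named genes in the table. All 11 probes passed the detection filter, as did 11887 probes of 8975 genes in all. The range, order and co-variation of the 10 genes are therefore given as a description with no test, and tests are kept for the comparison of the groups and for other transcripts.

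Each of 13 male mice of the strain C57BL/6J gave 1 sample of total RNA from the proximal small intestine, read on an Illumina bead array (MouseRef-8 v2.0). The 8 control mice ate regular lab chow, and the 5 treated mice ate chow with 0.005% ezetimibe, an inhibitor of intestinal cholesterol uptake. The sources used here give neither ages nor the length of treatment. The labels call each array a biological replicate, and the arrays lay on 2 slides that each held both groups.

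Acinar cells of the pancreas make the proteases, lipases, amylases and nucleases of pancreatic juice, store them in zymogen granules and release them through the pancreatic duct into the duodenum. The proteases are made as inactive precursors and are activated in the gut lumen by a cascade that enterokinase of the intestinal brush border starts by cleaving trypsinogen. The enzyme genes are switched on together in acinar cells, and in rodents the factor PTF1 is known to bind an E-box and a nearby TC-rich box in front of many of them.

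The upstream sequences of these genes are shown as background, and a link between them and the co-variation on the arrays was not tested. The RefSeq table of the mouse assembly GRCm38.p6 held a promoter for 9 of the 10 genes, and the 250 bases before the start of each were searched on both strands for CACCTG (1 form of the E-box), TTTCCC (1 form of the TC-rich box) and TATAAA. None of these motifs overlaps another in its letters. CACCTG was in 5 of the 9 promoters and in 17.2% of 32851 promoters searched alike, TTTCCC in 5 of 9 and in 21.9%, and TATAAA in 3 of 9 and in 12.4%. Both CACCTG and TTTCCC were in 3 of 9 (Cela1, Cela2a and Cel) and in 3.61% of all. In Cela1 the first base of CACCTG lay 109 bases and that of TTTCCC 99 bases before the start. The 3 promoters with both motifs follow, then that of Cela3b with 2 copies of CACCTG, and that of Pnlip, which held TATAAA alone. They are written 5′ to 3′ on the strand of the gene with motifs on either strand in capitals. A match is a description of the letters and not a site of binding.
Cela1, chr15:100687921-100688170, minus strand: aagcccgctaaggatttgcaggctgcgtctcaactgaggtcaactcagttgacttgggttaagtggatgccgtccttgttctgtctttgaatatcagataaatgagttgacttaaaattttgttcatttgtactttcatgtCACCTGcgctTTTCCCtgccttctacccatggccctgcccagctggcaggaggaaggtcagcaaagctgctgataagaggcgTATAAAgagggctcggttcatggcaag
Cela2a, chr4:141826006-141826255, minus strand: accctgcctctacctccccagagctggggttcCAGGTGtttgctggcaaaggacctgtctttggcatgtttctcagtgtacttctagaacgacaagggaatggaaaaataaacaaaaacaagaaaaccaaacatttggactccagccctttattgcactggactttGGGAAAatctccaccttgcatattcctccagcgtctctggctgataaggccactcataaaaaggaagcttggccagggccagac
Cel, chr2:28563404-28563653, minus strand: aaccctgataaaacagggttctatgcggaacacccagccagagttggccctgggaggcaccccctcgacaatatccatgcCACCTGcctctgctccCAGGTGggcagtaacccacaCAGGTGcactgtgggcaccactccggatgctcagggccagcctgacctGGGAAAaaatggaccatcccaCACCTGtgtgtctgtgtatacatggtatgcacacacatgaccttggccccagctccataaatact
Cela3b, chr4:137430521-137430770, minus strand: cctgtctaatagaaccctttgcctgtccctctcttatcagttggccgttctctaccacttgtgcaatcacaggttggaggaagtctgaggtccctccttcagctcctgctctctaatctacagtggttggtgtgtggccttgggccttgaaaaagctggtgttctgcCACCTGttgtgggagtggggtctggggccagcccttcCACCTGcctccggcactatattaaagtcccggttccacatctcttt
Pnlip, chr19:58670115-58670364, plus strand: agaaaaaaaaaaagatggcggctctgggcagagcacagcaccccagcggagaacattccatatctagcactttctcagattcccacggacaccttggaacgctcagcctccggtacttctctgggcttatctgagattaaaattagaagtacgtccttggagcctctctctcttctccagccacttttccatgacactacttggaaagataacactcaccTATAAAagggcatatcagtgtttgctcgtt

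The tissue label was checked first. All 8 genes of a list of duodenal markers were detected and tested, and 5 of 8 ileal ones were. Of those 5, Slc51a, Slc51b, Pyy and Gcg were detected on all 13 arrays and Fabp6, the ileal bile acid binding protein, on 5. The ileal genes not tested, named after their values were seen, were Slc10a2, Nts and Fgf15, detected on 1, 3 and 0 arrays. The summed level of the tested enterocyte genes lay between 16.44 and 16.74 in controls and between 16.37 and 16.64 with ezetimibe (log2 intensity). Such a sum is set mostly by its brightest genes. Of 15 enterocyte genes with a probe 11 were tested, and 4 were not for lack of detection, 3 of them detected on 0 arrays. Median raw signals were 146.9 to 152.8 on slide 1 against 120.7 to 127.9 on slide 2, and 11085 to 12380 probes were detected per array. All levels below are log2 intensities after quantile normalization with the fitted difference between slides taken out, and levels of different probes show no difference in transcript amount. The number of arrays limits the precision.

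The pancreas level, the mean over the 10 genes, differed between arrays by up to 7.40 log2 units. It was highest on ezetimibe 4 (13.65), followed by control 5 (12.72), control 4 (12.15), ezetimibe 2 (11.89), ezetimibe 3 (11.17), control 3 (9.92), control 8 (9.74), control 1 (8.60), control 2 (8.31), control 6 (8.15), ezetimibe 1 (7.14), ezetimibe 5 (6.38) and control 7 (6.25). The arrays of both groups were spread through this order. Over all 13 arrays at most 1.25 log2 units separated neighbours, and no gap set a few arrays apart. Within a group the gaps were wider. The largest was 4.03 among the ezetimibe arrays, between ezetimibe 3 and ezetimibe 1, and 2.23 among the controls. Within slide 1 the level spanned 5.01 and within slide 2 it spanned 7.40. Controls gave 9.48 ± 2.14 (SD, n = 8) and ezetimibe arrays 10.05 ± 3.14 (SD, n = 5). In the deposited processed values the span was 4.48, less by over 1.5 times, while each gene's values there correlated with those used here at r between 0.953 and 0.991 (13 arrays). In RNA of whole tissue, more cells of a type and more RNA per cell cannot be told apart.

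**Figure D1:**
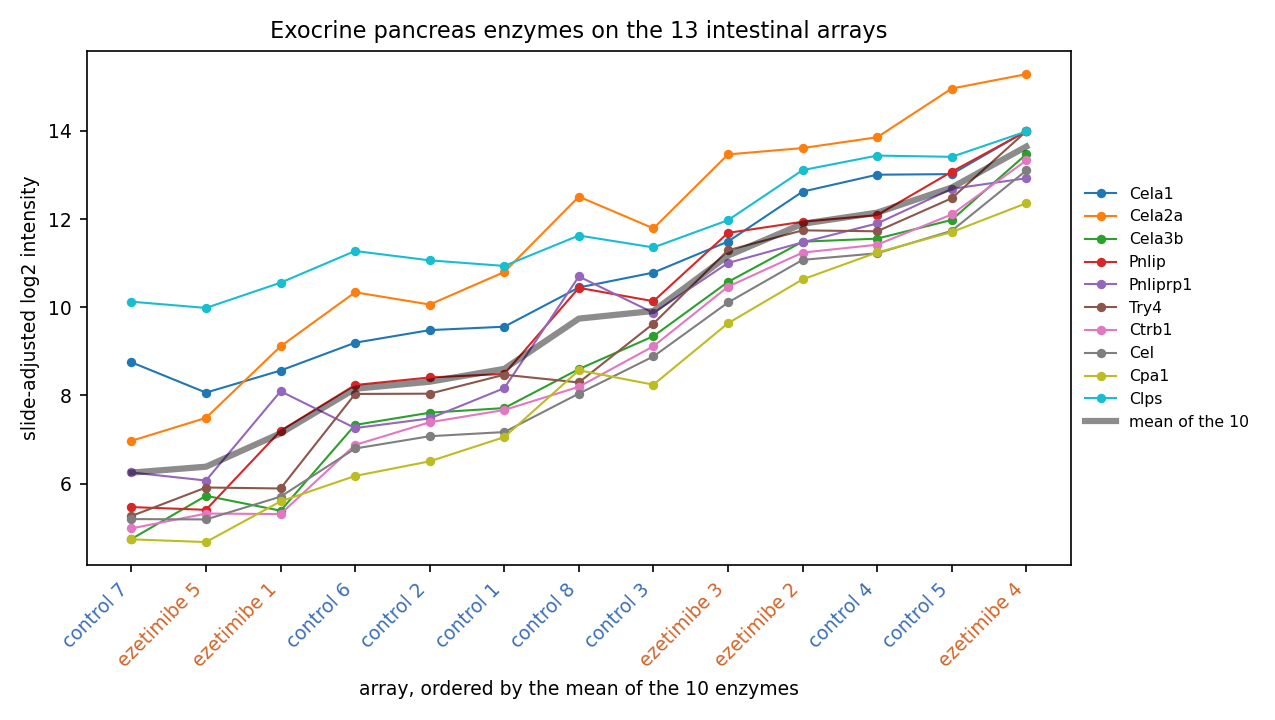
Slide-adjusted level (log2 intensity) of each of the 10 enzyme genes on each of the 13 arrays, with the arrays in the order of the mean over the genes (broad grey line). All 10 genes are highest on ezetimibe 4 and lowest on control 7 or ezetimibe 5.

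Elastases are serine proteases of the pancreatic juice. Cela2a (chr4:141814954-141826005 in GRCm38.p6) ran in the 8 controls from 6.97 through a median of 11.30 to 14.96, and read 9.11, 13.61, 13.47, 15.29 and 7.49 on ezetimibe 1 to 5. Its raw signal went from 164.6, close to the background, to 30508.5. The groups overlapped, and both the lowest and the second highest reading were controls. Cela3b (chr4:137421008-137430520) spanned 8.73 log2 units, as did Try4, with its low end on an array where it was not detected. It ran from 4.74 through 8.16 to 11.98 in controls and read 5.39, 11.49, 10.58, 13.47 and 5.72 with ezetimibe, and the undetected reading was that of control 7. Cela1 (chr15:100674422-100687920) spanned less, 5.94 log2 units, from 8.75 through 10.00 to 13.02 in controls against 8.57, 12.62, 11.49, 14.00 and 8.06 on ezetimibe 1 to 5. It stayed detected on all 13 arrays, and its lowest raw signal was 299.

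Trypsin, chymotrypsin and carboxypeptidase A complete the proteases. Try4, a trypsinogen (chr6:41302272-41305533), ran from 5.26 through 8.38 to 12.47 in controls and read 5.89, 11.75, 11.29, 13.99 and 5.91 with ezetimibe. Ctrb1, a chymotrypsinogen (chr8:111686510-111691010), ran from 4.98 through 7.93 to 12.11 in controls and read 5.31, 11.24, 10.47, 13.33 and 5.32 with ezetimibe. Both genes gave a similar order, with ezetimibe 1 and 5 near the bottom and ezetimibe 4 above every control. Cpa1, carboxypeptidase A1 (chr6:30639218-30645361), which trims residues from the C-terminus, ran from 4.74 through 7.65 to 11.71 in controls against 5.60, 10.63, 9.64, 12.36 and 4.67. Ctrb1 and Cpa1 were each not detected on control 7 and ezetimibe 5. The trypsinogens are a family of near-identical genes, several of them next to Try4 on chromosome 6, so signal of the Try4 probe may include others of the family.

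The lipases split fats and esters. Pnlip, the main pancreatic triglyceride lipase (chr19:58670365-58681799), ran from 5.47 through 9.31 to 13.08 in controls and read 7.20, 11.94, 11.69, 13.99 and 5.41 with ezetimibe, where ezetimibe 5 was not detected. Pnliprp1, a lipase-related protein with little known activity on triglycerides (chr19:58728887-58744169), ran from 6.25 through 9.02 to 12.69 in controls against 8.09, 11.47, 11.01, 12.93 and 6.07. Both lipase genes lie on chromosome 19 and were detected on 12 and 13 arrays. Cel, the bile salt-dependent carboxyl ester lipase that also cleaves cholesteryl esters (chr2:28555819-28563403), ran from 5.20 through 7.61 to 11.74 in controls and read 5.70, 11.08, 10.11, 13.10 and 5.19 with ezetimibe. Taken over both groups, its arrays again formed a continuous series, and the groups overlapped.

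Clps, colipase, anchors pancreatic lipase to bile salt-coated fat droplets (chr17:28558210-28560766). It had the narrowest span of the 10 genes, 4.00 log2 units on the brighter probe and 4.68 on the other. The brighter probe ran from 10.13 through 11.32 to 13.44 in controls and read 10.56, 13.11, 11.98, 13.99 and 9.99 on ezetimibe 1 to 5. Its raw signal never fell below 748.8, so it was well detected also on control 7 and ezetimibe 5. For each log2 unit of the mean of the other 9 genes Clps changed by 0.50, Cela1 by 0.77 and Pnliprp1 by 0.95, and the remaining 7 genes by 1.08 to 1.14. The excess of Clps over the mean of the others was 0.38 on ezetimibe 4 and 3.80 on ezetimibe 1, where all 10 genes were detected. The ratio of these signals thus differed between the arrays. On ezetimibe 1 the raw signals of Cela3b, Ctrb1 and Cpa1 were 185.6, 189.4 and 191.7, with a median of 146.9 over all probes. Whether the ratio of the transcripts themselves differed was not tested.

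The 10 genes ordered the arrays nearly alike. Ezetimibe 4 ranked 1st and ezetimibe 3 5th for all 10, control 7 and ezetimibe 5 ranked between 11th and 13th, and no array moved by more than 3 ranks between genes (Kendall's W 0.977). Of 130 readings 6 were not detected, all of them on control 7 and ezetimibe 5, so the order of those low readings is uncertain. Pearson's r between pairs of genes over the 13 arrays, which share library and slide adjustment, ran from 0.926 (Pnliprp1 and Try4) to 0.997 (Cela3b and Ctrb1), with a median of 0.976 over 45 pairs. Within slide 1 the median r was 0.985, within slide 2 it was 0.979, in controls 0.966 and with ezetimibe 0.987. The SD of the log2 ratio was 0.20 for Cela3b to Ctrb1 and 1.56 for the least steady pair.

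A few arrays departed from the common pattern, and these were picked after their values were seen. On control 8 compared with control 6, both on slide 2, Pnliprp1 was higher by 3.44 log2 units, Cpa1 by 2.40, Pnlip by 2.20 and Cela2a by 2.17, while Try4 differed by 0.26 and Clps by 0.35. Outside the 10 genes, the trypsinogen Try5 differed by 0.037 and the amylase Amy2 by -0.93 between these arrays. On ezetimibe 1 compared with control 2, both on slide 1, Try4 was lower (difference -2.15), as were Cela3b (-2.22), Ctrb1 (-2.08) and Amy2 (-3.76), while Pnliprp1 differed by 0.62. Against the mean of the other 9 genes, Pnliprp1 stood at 1.06 on both control 8 and ezetimibe 1 and at -0.99 and -0.93 on control 6 and control 2, its lowest arrays by this measure. The differences above compare these extremes and are enlarged by that choice. These are single arrays, and no test was made of the contrast.

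**Figure D2:**
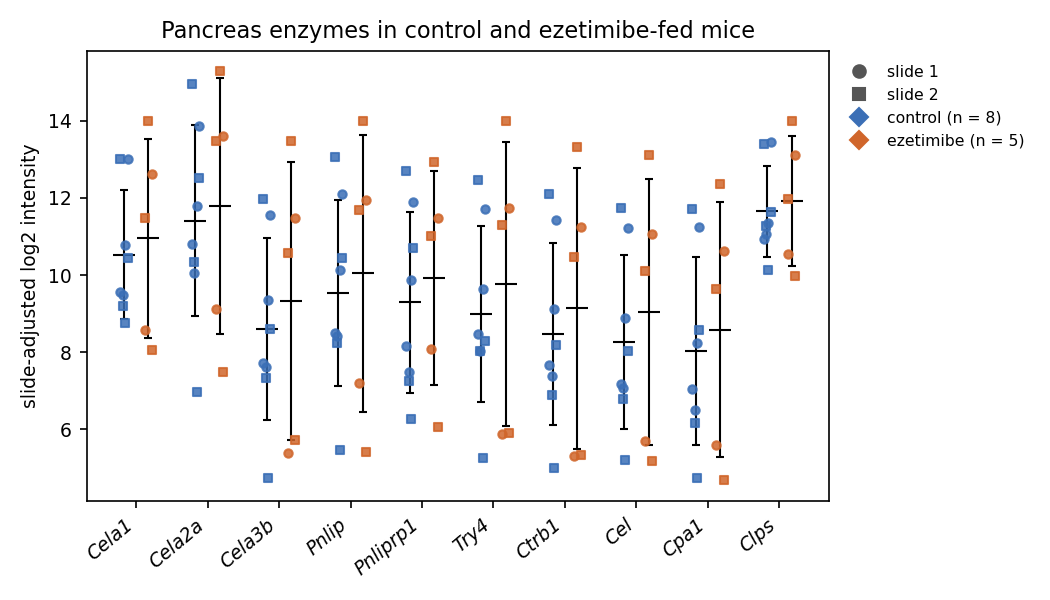
Slide-adjusted level (log2 intensity) of the 10 enzyme genes in 8 control and 5 ezetimibe arrays, 1 point per array with round points for slide 1 and squares for slide 2. Bars are the mean and SD of a group, and in every gene the readings of the groups overlap.

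The design asked whether ezetimibe changed transcripts. Of the 10 genes 0 passed (limma, adjusted p under 0.10 over all tested probes), where 0.252% of all 11887 tested probes did, and 735 probes had an unadjusted p under 0.05. The log2 fold changes ran from 0.27 ± 0.67 for Clps to 0.78 ± 1.38 for Try4 (± SE, limma, adjusted p = 0.975 and 0.962), with Cela3b at 0.72 ± 1.39, Pnlip at 0.50 ± 1.40 and Cela2a at 0.38 ± 1.36. The 95% interval of Try4 reached from -2.16 to 3.71 and that of Clps from -1.15 to 1.69, so the spread between mice left room for differences of either sign in both genes. Leaving out ezetimibe 4 and control 7, the arrays farthest from the median level, turned all 10 values below 0 (-1.15 to -0.46). On slide 1 alone 8 of the 10 were below 0 (-0.65 to -0.11). The product of slide and ezetimibe passed for 0 probes (0% of all tested, 317 at an unadjusted p under 0.05), and its adjusted p in limma was 1.00 for each of the 10 genes.

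The next comparison asked which other transcripts went up or down with the pancreas level, as a slope per log2 unit of the level with slide and group as terms. Of the genes that rose, 23 of 35 stood on lists of acinar cell genes. In all, 37 probes outside the 10 genes rose, for 35 genes (limma, adjusted p under 0.10; 0.312% of 11876 tested probes), and 2 fell (0.0168%). At an unadjusted p under 0.05, 262 rose and 245 fell, and the median slope over all these probes was -0.0023. Of the 37, 35 were highest on ezetimibe 4, and 0 passed with ezetimibe (lowest adjusted p 0.829). Only 13 of the 37 were detected on all 13 arrays. A probe detected on few arrays enters the test through its high arrays, and among probes with a detection p under 0.01 on every array 11 rose.

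**Figure D3:**
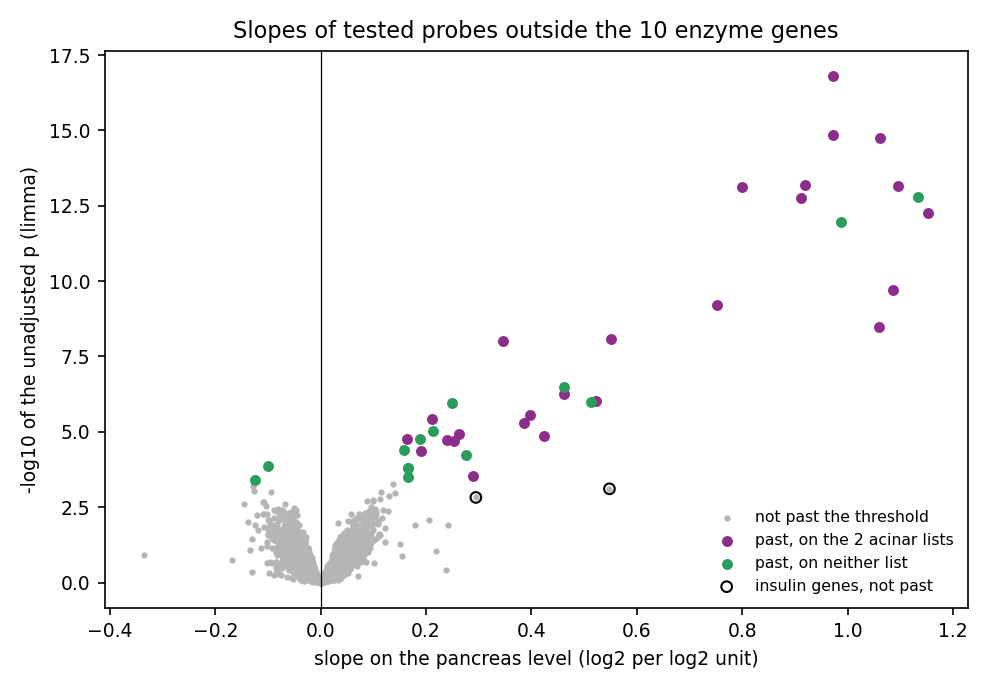
Slope on the pancreas level (log2 intensity per log2 unit) of every tested probe outside the 10 enzyme genes, on the x axis, against -log10 of its unadjusted p in limma. The 37 probes that rose lie to the right with slopes of 0.16 to 1.15, the 2 that fell at -0.12 and -0.10, and the insulin genes are ringed.

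Other acinar enzymes rose with the 10 genes, with 14 of 15 tested genes of a list of them past the threshold and a median slope of 0.80. Over all tested probes outside the 10 genes 0.312% rose, and the median slope was -0.0023. The list was chosen with earlier results of these data known, so the count is a description. It also holds trypsinogens of the family of Try4, which is part of the level. Ctrl, a chymotrypsin-like protease, followed the level most closely of all transcripts. It read from 6.24 through 8.87 to 12.45 in controls and 6.75, 11.75, 10.73, 13.04 and 6.33 on ezetimibe 1 to 5, in the same order of arrays as the level itself. Its slope was 0.97 ± 0.02 (SE, limma, adjusted p = 1.87e-13). Among the proteases, Cpb1, carboxypeptidase B, had a slope of 1.10 ± 0.04 and Ctrc, chymotrypsin C, 0.40 ± 0.05 (limma, adjusted p = 8.28e-11 and 0.00106). Ctrc was detected on 6 of the 13 arrays, and Prss3, Amy2b and Prss2 of the same list on 7, 8 and 9.

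Of the trypsinogen family, 7 transcripts rose. Try5 had the steepest slope, 1.15 ± 0.05, and ran from 4.88 to 13.88 over the 13 arrays. Gm5409, which RefSeq lists as a pseudogene with the synonym Try10l, gave 1.13 ± 0.05, Try10 1.08 ± 0.07, Gm5771 0.99 ± 0.05, Prss2 0.52 ± 0.07, 2210010C04Rik 0.51 ± 0.07 and Prss3 0.39 ± 0.06 (limma, adjusted p at most 0.00182). Probes of near-identical genes can share signal, so these values do not show which copies were transcribed. Spink1, an inhibitor of trypsin whose probe carries the older name Spink3, did not pass, at 0.013 ± 0.018 on a probe detected on all 13 arrays (limma, adjusted p = 1.00).

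Lipid, starch and RNA digestion were represented as well. Pla2g1b, the pancreatic phospholipase A2, had a slope of 1.06 ± 0.03, Amy2, pancreatic amylase, 1.06 ± 0.09 and Rnase1, pancreatic ribonuclease, 0.80 ± 0.03 (limma, adjusted p = 3.43e-12, 1.70e-06 and 8.28e-11). Rnase1 was detected on every array and read 7.78, 11.86, 10.86, 13.37 and 7.51 with ezetimibe. Amy2 was detected on 11 arrays, and the order of its lowest readings is uncertain. Pnliprp2, a lipase-related protein detected on all arrays, rose by 0.35 ± 0.03 on its brighter probe and by 0.25 ± 0.04 on the other (limma, adjusted p = 4.38e-06 and 0.00596). The kallikreins Klk1, Klk1b5, Klk1b4 and Klk1b27, near-identical copies whose probes can share signal, were detected on all 13 arrays and rose by 0.24, 0.25, 0.19 and 0.17 (limma, adjusted p at most 0.0396).

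**Figure D4:**
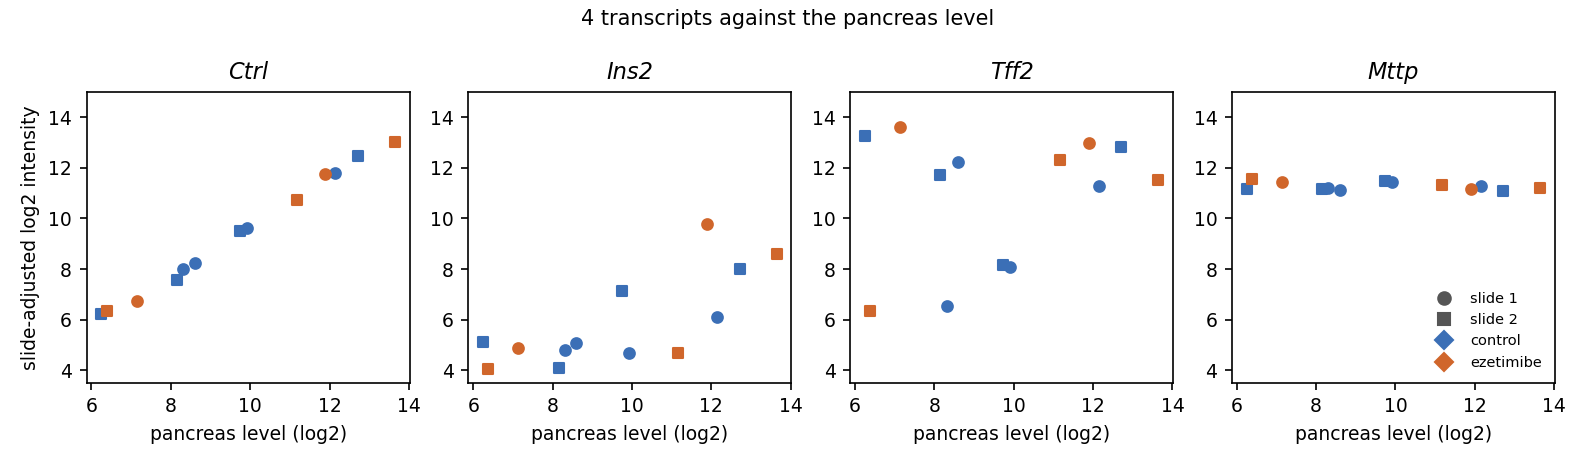
Slide-adjusted level (log2 intensity) of Ctrl, Ins2, Tff2 and Mttp against the pancreas level (log2 intensity), 1 point per array, with groups by colour and slides by shape. Ctrl follows the level on all 13 arrays, while Ins2 is above 7 on 4 arrays, with its highest reading on ezetimibe 2 and one on control 8 in the middle of the level, and Mttp stays nearly level.

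Genes of the acinar cell that are not digestive enzymes rose in part, with 9 of 12 tested genes past the threshold and a median slope of 0.28. Sycn, a protein of the zymogen granule membrane, had a slope of 0.97 ± 0.03 and Gp2, the main glycoprotein of that membrane, 0.92 ± 0.04 (limma, adjusted p = 3.43e-12 and 8.28e-11). Cuzd1, another zymogen granule protein, gave 0.75 ± 0.06 and Erp27, an endoplasmic reticulum protein abundant in the pancreas, 0.55 ± 0.05 (limma, adjusted p = 3.41e-07 and 4.04e-06). Transcription factors of acinar cells were among them. Rbpjl, the acinar subunit of PTF1, rose by 0.46 ± 0.06 (limma, adjusted p = 0.000234, detected on 9 arrays). The probes of Bhlha15, also called Mist1, had slopes of 0.19 ± 0.03 and 0.21 ± 0.03 and both passed (limma, adjusted p = 0.0116 and 0.00132). Ptf1a, the DNA-binding subunit of PTF1, was detected on 2 arrays and not tested. Nupr1, Reg2 and Gnmt rose by 0.26, 0.29 and 0.16 (limma, adjusted p = 0.00389, 0.0747 and 0.00526). They were detected on 13, 8 and 6 arrays, and Cuzd1 and Erp27 on 10 and 9. Reg1 at -0.0033, Rab3d at -0.0063 and Nr5a2 at -0.039 did not pass, all on probes detected on every array. Reg1 lay between 14.70 and 14.87 on all arrays, near the highest reading of the enzymes, that of Cela2a on ezetimibe 4 (15.29). So bright a probe may have had little room to rise, so its slope cannot decide whether the Reg1 transcript rose.

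Together, 23 of 27 tested genes of the acinar lists rose. The count was 7 of 11 among genes with a detection p under 0.01 on every array, 16 on slide 1 alone, 17 on slide 2 alone and 17 in the 8 controls alone. It was 20 without control 7 and ezetimibe 5, the lowest arrays, a setting chosen after seeing the data. The counts of all probes that rose were 22 on slide 1 alone, 25 on slide 2 alone, 22 in the controls alone, 30 without those 2 arrays and 30 without ezetimibe 4 and control 7.

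The remaining 12 genes that rose stood on no acinar list and were, apart from Gm5409 and Gm5771, named after their values were seen. Besides the trypsinogens and kallikreins above they were Slc38a5, an amino acid transporter (0.46 ± 0.05), Hamp2, a hepcidin (0.28 ± 0.05), Arhgdig (0.21 ± 0.03), Reg3d of the regenerating protein family (0.17 ± 0.04), Gal, the galanin precursor (0.17 ± 0.03), and Slc6a9, a glycine transporter (0.16 ± 0.03). Their adjusted p in limma ran from 0.000142 to 0.0747. Slc38a5 read 4.70, 6.23, 5.19, 7.55 and 4.16 on ezetimibe 1 to 5 and was detected on 7 arrays. Reg3d was detected on 5 arrays, Hamp2 on 6, Gal on 12, and Arhgdig and Slc6a9 on 13.

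By likeness over the 13 arrays, with each gene's Pearson r to the pancreas level as the measure, the nearest of 8965 genes included Ctrl (0.998), Pla2g1b (0.995), Sycn (0.994), Rnase1 (0.990), Gp2 (0.990), Cpb1 (0.989), Gm5409 (0.989), Try5 (0.986) and Gm5771 (0.985). The 11th gene had an r of 0.969, 21 genes were above 0.9, and the median over all genes was 0.018. All points share the arrays, the normalization and the slide adjustment.

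Only 2 probes fell. Ethe1, a mitochondrial sulfur dioxygenase, had a slope of -0.10 ± 0.02 and Ezh1, a histone methyltransferase, -0.12 ± 0.03 (limma, adjusted p = 0.0350 and 0.0919). Ethe1 read from 8.74 through 9.06 to 9.44 in controls and 9.35, 9.34, 9.05, 8.65 and 9.62 on ezetimibe 1 to 5, so it was lowest where the enzymes were highest. Ethe1 did not pass without control 5, control 7, ezetimibe 4 or ezetimibe 5, each left out in turn (adjusted p 0.104 to 0.410). Of 23 other settings it did not pass in 7, which were median scaling, the deposited processed values, no slide term, slide 1 alone, the controls alone, and leaving out the 2 farthest or the 2 lowest arrays (adjusted p 0.130 to 0.990). Ezh1 was detected on 8 arrays and did not pass in 11 of 13 cases where 1 array was left out, nor in 16 of 22 other settings.

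Endocrine genes of the pancreas were measured beside the acinar ones. Of the islet list 0 of 5 tested genes passed and their median slope was 0.029, where 0.312% of all tested probes outside the 10 genes rose. Ins2, an insulin gene, had a slope of 0.55 ± 0.13 and Ins1, the other, 0.29 ± 0.08 (limma, adjusted p = 0.175 and 0.303), detected on 7 and 6 arrays. The rest of the tested islet genes, named after their values were seen, were Ucn3 (0.0082), Ttr (-0.021) and Scg2 (0.029). They were detected on 5, 13 and 13 arrays, and the median of the list is the slope of Scg2. Ins2 ran from 4.10 through 5.11 to 8.01 in controls and read 4.89, 9.77, 4.69, 8.60 and 4.03 on ezetimibe 1 to 5. Its highest reading was on ezetimibe 2, the fourth array in the pancreas level, while ezetimibe 3, the fifth, was near the background. Control 8, the seventh, read 7.15, above control 4, the third, at 6.09. Under median scaling both insulin genes passed (slopes 0.53 and 0.27, adjusted p = 0.00520 and 0.0841), and Ins2 also passed with no detection filter, with slide position in the model and without ezetimibe 3 (adjusted p 0.0149 to 0.0807). Ins1 also passed without ezetimibe 2 or ezetimibe 3 (adjusted p = 0.0580 and 0.0938). Of 12 islet genes 7 were not tested for lack of detection, and Iapp, the amylin gene, was detected on 0 arrays. The acinar cell list also held 4 genes detected on 0 arrays and the enterocyte list 3. Such a reading alone does not show that a transcript was absent. The summed level of the tested islet genes ran from 8.16 to 9.14 in controls and from 8.12 to 10.41 with ezetimibe. The part of pancreatic tissue in the samples was not tested.

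**Figure D5:**
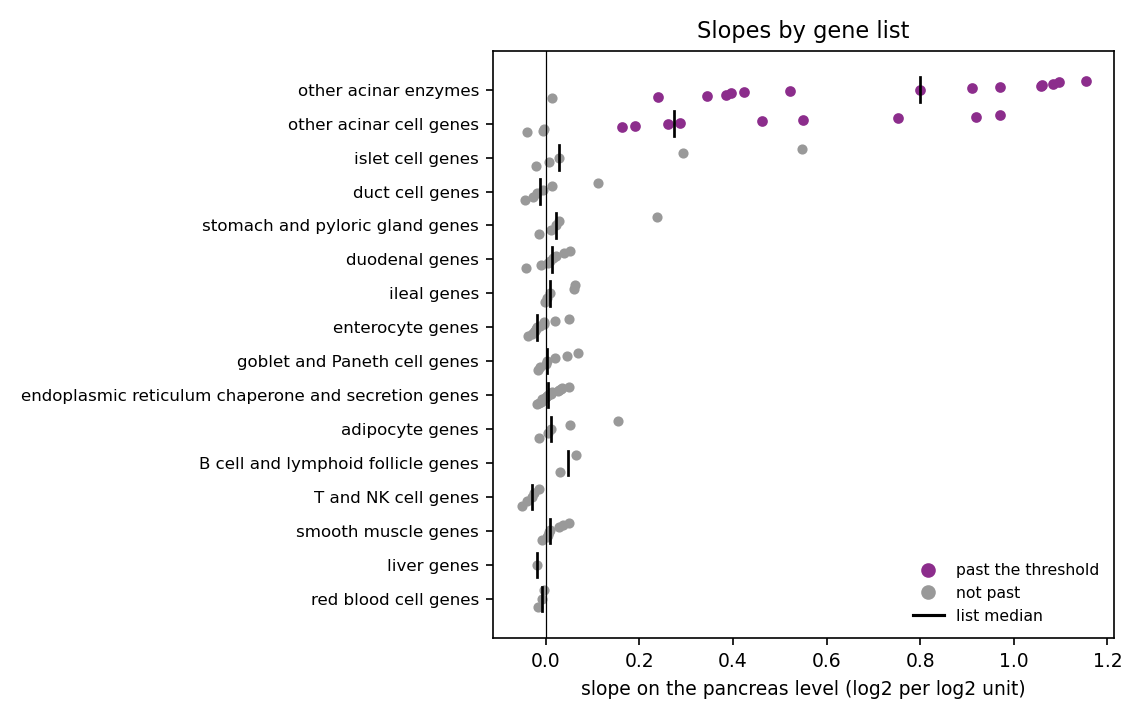
Slopes on the pancreas level (log2 intensity per log2 unit) of the tested genes of the 16 lists, 1 point per gene and a bar at the median of the list. The pair of acinar lists reaches up to 1.15, while the genes of the other 14 lists lie between -0.05 and 0.55 with 0 past the threshold.

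None of the other lists had a gene past the threshold in this fit. Of the duct cell genes, 0 of 6 passed, with Muc1 at 0.11 ± 0.05 and the ductal factor Sox9 at -0.044 ± 0.036. Of the stomach and pyloric gland genes, 0 of 5 passed. Tff2, a gland mucus peptide, had a wide spread of its own, from 6.55 to 13.27 in controls and from 6.33 to 13.63 with ezetimibe, and a slope of 0.24 ± 0.26. It was highest on ezetimibe 1 (13.63) and control 7 (13.27), where the pancreas enzymes were low, but also read 12.99 on ezetimibe 2, where they were high. The 8 duodenal genes had a median slope of 0.013, with the hormones Sct at 0.039 ± 0.030 and Gip at -0.042 ± 0.026, and the 5 ileal genes 0.010. The 11 enterocyte genes had a median of -0.018 and the 7 goblet and Paneth cell genes 0.0030, with Mttp of chylomicron assembly at -0.025 and Zg16 of goblet granules at -0.015. Genes of endoplasmic reticulum chaperones and secretion, which acinar and intestinal cells both use, gave 0 of 17 and a median of 0.0059, with Pdia3 at 0.051 ± 0.026. Adipocyte (0 of 5), B cell (0 of 2), T and NK cell (0 of 5), smooth muscle (0 of 8), liver (0 of 1) and red blood cell genes (0 of 3) had medians between -0.029 and 0.048. The adjusted p in limma was 1.00 for each gene named here. Tmprss15, which encodes the enterokinase that activates trypsinogen and was looked up after the other values were seen, was detected on 13 arrays at 12.17 to 12.91 and had a slope of 0.017 ± 0.024 (limma, adjusted p = 1.00).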

How the data were processed

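Total RNA of 13 intestines was labelled with biotin and hybridised to Illumina MouseRef-8 v2.0 arrays. Per the file headers, the deposited unnormalized table gives each probe on each array its mean bead signal (a linear intensity) together with a detection p-value. A deposited table of processed intensities of the same arrays, which per the labels' series text were quantile-normalized and batch-corrected with Combat, served as an alternative. The sources used here do not name the program that exported the signals.

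From the deposited signals, log2 levels were made with neqc (normexp background from the detection p-values, offset 16, quantile normalization; limma 3.58.1, R 4.3.3). The test took every probe whose detection p was under 0.05 on 5 or more of the 13 arrays. Per probe, lmFit and eBayes with an intensity trend fitted slide and group, and for the slopes also the pancreas level (the mean of the 10 genes, brightest tested probe of each), with Benjamini-Hochberg adjusted p under 0.10 over all tested probes, 10% being the false discovery rate of the study. Slide came from the array names. Errors of slopes and fold changes are moderated standard errors. The scripts were tested on simulated data.

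Symbols were updated through the RefSeq table of GRCm38.p6: 20442 probes had a current symbol, 4102 were renamed, 1133 kept the file's name and 20 stayed unnamed. A probe named Ela2 in the file, a synonym of more than 1 gene, was not counted as Cela2a. The 10 genes and the 16 gene lists were chosen with earlier results of these data known, and the lists are no independent evidence of a direction. Named were all 10 genes, the 15 largest positive and 10 most negative slopes past the threshold (1 probe per gene), the 10 genes most like the level, and per list up to 4 genes past the threshold or else the 2 with the smallest p. A gene that this rule names is not reported here. Where another gene is named, the text says that its values had been seen, and further acinar list genes are given to complete their lists. Alternatives varied the background, scaling, filter, slide term, eBayes settings, threshold, level and arrays. Leaving out the 2 lowest arrays was added after seeing the data.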

Additional observations from a re-analysis of the deposited data

Results flagged for a closer look

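Among 110 groups of 4 to 10 arrays checked, 3 held an array whose gap to the nearest other, divided by the range of its group, passed Dixon's critical value, where chance gives about 1 in 20. Tff2 on ezetimibe 5 stood at 6.33 against 11.53 on the nearest ezetimibe array (0.712 of the range). Sct on ezetimibe 4, the array highest in the pancreas enzymes, stood at 12.87 against 12.42 (0.736). Alas2, of haem synthesis, stood on the same array at 4.85 against 5.45 (0.732). None of the 10 pancreas enzymes had such an array in either group.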

How the results depend on the processing

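The count of enzyme genes past the threshold with ezetimibe was 0 in every setting run. The 37 probes that rose became 11 with a detection p under 0.01 on all arrays (fewer probes tested), 22 on slide 1 alone and 22 in the 8 controls alone, and the 23 acinar genes became 7 with that filter. The 2 probes that fell became 1 without background correction, with an offset of 50, with the strict filter, with position as a covariate, with robust eBayes, with an adjusted p under 0.05 and with the summed linear signal as the level. They became 0 with median scaling, the deposited values, no slide term, slide 1 alone, the controls alone, and without the 2 arrays farthest from the median or lowest in the level, 3 with slide 2 alone, slide as a random block, array weights, no group term or Pnlip alone as the level, and 4 without a trend. The cause of these changes was not tested. Leaving out 1 array gave 33 to 39 probes that rose, 22 to 23 acinar genes, 0 to 5 probes that fell and a span of the level from 6.47 to 7.40. The span was 4.48 in the deposited values.

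Log2 fold changes of the enzymes turned on slide 1 alone (Cela1 -0.11, Cela2a -0.26, Cela3b -0.62, Pnlip -0.21, Try4 -0.65, Ctrb1 -0.62, Cel -0.20, Cpa1 -0.15) and without ezetimibe 4 and control 7 (Cela1 -0.59, Cela2a -1.15, Cela3b -0.87, Pnlip -1.08, Pnliprp1 -0.57, Try4 -0.81, Ctrb1 -0.88, Cel -0.68, Cpa1 -0.86, Clps -0.46). None passed there. With 1 array left out they ran from -0.35 to 1.18 (Cela1), -0.49 to 1.46 (Cela2a), -0.32 to 1.97 (Cela3b), -0.49 to 1.66 (Pnlip), -0.13 to 1.59 (Pnliprp1), -0.28 to 2.01 (Try4), -0.39 to 1.88 (Ctrb1), -0.25 to 1.83 (Cel), -0.39 to 1.53 (Cpa1) and -0.25 to 0.75 (Clps). Slopes of list genes that never passed turned in some settings. These were Mttp 0.018 and Hba-a1 0.028 with median scaling, and Mttp 0.022 with no slide term. On slide 1 alone they were Sox9 0.00083, Gcg -0.021, Itln1 -0.066, Zg16 0.016, Pdia3 -0.037, Creld2 -0.022, Lpl -0.0030, Ccl5 0.16, Nkg7 0.092 and Serpina1b 0.0094. On slide 2 alone they were Hba-a1 0.023 and Alas2 0.012, and with no group term 0.015 and 0.0011. In the controls alone they were Ctse -0.00093, Mttp 0.0036, Cfd -0.12, Ccl5 0.025, Nkg7 0.035, Serpina1b 0.016, Hba-a1 0.12 and Alas2 0.070. Without ezetimibe 4 and control 7 they were Sct -0.015, Gcg -0.022, Ccl5 0.024, Nkg7 0.015, Hba-a1 0.0016 and Alas2 0.018, and without control 7 and ezetimibe 5 Ctse -0.0097, Pdia3 -0.00018, Ccl5 0.11, Nkg7 0.082 and Serpina1b 0.024. With 1 array left out the ranges were Alas2 -0.051 to 0.038, Ccl5 -0.11 to 0.040, Ctse -0.0013 to 0.063, Hba-a1 -0.088 to 0.075, Nkg7 -0.069 to 0.027, Serpina1b -0.041 to 0.020 and Tff2 -0.14 to 0.48.

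Replicate numbers do not pair the arrays. Deviations from the group means correlated at 0.12, -0.13, 0.047, 0.36 and -0.42 for numbers 1 to 5, and with the replicate block 0 enzyme genes passed with ezetimibe, 37 probes rose, 2 fell and 23 acinar genes rose. Signals near the background limit the low arrays, where 6 of 130 readings were not detected.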
